A study of Homo sapiens with 12 samples.

Results

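The glutamate tRNAs with the anticodon TTC were followed through tRNA m1A sequencing of DLD1, a cell line from a human colorectal cancer. All rows of tRNA-Glu-TTC-2-1 and tRNA-Glu-TTC-4-1 in the deposited site table were taken. They gave 3 of the 44 listed adenosines and 2 of the 29 listed tRNAs. tRNA-Glu-TTC-2-1 held A5 and A37, and tRNA-Glu-TTC-4-1 held A57, the base that standard tRNA numbering calls A58. No other glutamate tRNA was among the sites analysed here. These tRNAs were singled out with their Input mismatch rates in CTRL and OE-WT known. The rule that named them also spanned their reads in all 12 libraries. The mismatch contrast is a description here, and calls over all sites are given for it as background only. The p-values of the members on reads per site describe them likewise and add no independent support.

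CTRL cells carried a lentiviral empty vector, and OE-WT cells stably overexpressed wild-type TRMT6/TRMT61A by the labels and the study's methods. The design text of the series speaks instead of separate TRMT6 and TRMT61A groups, and OE-WT is taken here as the labels give it. Each condition had 2 cultures of 1 line, and whether the lines were clones or pools is not given in the sources used here, so the overexpressed pair and the line itself cannot be told apart. By the replicate numbers in the titles, which are the only link between the fractions, each culture gave a library of each fraction, 12 in all. These were an untreated small RNA library (Input), an m1A antibody library (IP) and an antibody library labelled dma.IP. The sample titles do not spell out dma.IP, which is taken here as demethylase-treated. The libraries hold small RNA, so neither the level of the overexpressed genes nor the identity of the cells was checked here. Over the 44 sites the Input libraries carried 33288 to 72519 reads, the IP libraries 59 to 220 and the dma.IP libraries 62 to 203. These sums are not the full depth of the libraries, and a read that crosses several sites counts at each.

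Glutamate tRNAs carry glutamate to the codons GAA and GAG, and the TTC anticodon, written UUC in the RNA, pairs with GAA. Methyl groups on the N1 of adenosine block its base-pairing face, so reverse transcriptase stops there or inserts a wrong base, and mismatched reads are used as a measure of m1A. TRMT6 and TRMT61A form the nuclear enzyme that methylates A58 in the T loop, TRMT61A being the catalytic subunit. A37 lies directly 3′ of the anticodon, a position that carries different modifications in many tRNAs, and A5 lies in the acceptor stem. Whether the mismatches at A37 and A5 were m1A was not tested.

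The full sequences are shown because the 3 adenosines lie in different arms of nearly the same fold. Letters are DNA letters from 5′ to 3′, without the CCA end, and capitals mark the listed adenosines.
tRNA-Glu-TTC-2-1: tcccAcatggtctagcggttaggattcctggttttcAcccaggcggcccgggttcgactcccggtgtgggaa
tRNA-Glu-TTC-4-1: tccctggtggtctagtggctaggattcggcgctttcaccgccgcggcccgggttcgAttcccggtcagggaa
Both tRNAs are 72 bases long, with the anticodon at bases 34 to 36. In hg38, the build of the files, tRNA-Glu-TTC-2-1 was listed on the minus strand at chr13:44917927-44917998, which RefSeq annotates as TRE-TTC2-1 and within LOC107984619. An identical copy, TRE-TTC2-2, stood at chr15:26082234-26082305. tRNA-Glu-TTC-4-1 was listed on the minus strand at chr1:16535279-16535350, as TRE-TTC4-1, within an exon of the long noncoding RNA gene LINC01783. Its identical copy, TRE-TTC4-2, lay at chr1:161422093-161422164, within an exon of an unnamed long noncoding RNA gene on the opposite strand. Reads of identical copies cannot be assigned to 1 gene.

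tRNA-Glu-TTC-2-1 and tRNA-Glu-TTC-4-1 differed at 15 bases and were 79.2% identical. Positions are counted from 1 at the 5′ end, with the base of tRNA-Glu-TTC-2-1 first. Of the 15 differences, 10 lay in 5 stem pairs in which both bases were exchanged and both tRNAs kept Watson-Crick pairing. A5T and T67A made 1 of these pairs, so the acceptor-stem adenosine read in tRNA-Glu-TTC-2-1 does not exist in tRNA-Glu-TTC-4-1. C6G with G66C was the next acceptor pair. C28G with G42C, T29G with A41C and G30C with C40G exchanged the middle of the anticodon stem. The other 5 were A7G, C16T, T19C, T32C and C58T.

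A37 and A57 were shared by both tRNAs, although the table listed A37 for one and A57 for the other. The bases around A37 read ttttcAcccag in tRNA-Glu-TTC-2-1 and ctttcAccgcc in tRNA-Glu-TTC-4-1. Around A57 they read gttcgActccc and gttcgAttccc, where the letter after the capital, C58T, was the only difference. The T-loop letters TTCGA began at base 53 in both. Searched over the whole sequence on the RNA strand alone, TTCGA stood in 18 of the 29 listed tRNAs (62.1%) and TTCAA in 11 (37.9%). At least 1 of them stood in 28 (96.6%), so these letters are no mark of the glutamate tRNAs.

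RefSeq annotates 15 glutamate tRNA genes in hg38, 7 with TTC and 8 with CTC at bases 34 to 36. All 15 carry A at 37 and at 57. An A at base 5 was in 4 of them, the TTC1 and TTC2 genes, and the other 11 have T there. A close relative of each member that is not its identical copy is shown because it bears on how far its reads can be told apart. Capitals mark the bases that differ from tRNA-Glu-TTC-2-1 in the first and from tRNA-Glu-TTC-4-1 in the second.
TRE-TTC1-1: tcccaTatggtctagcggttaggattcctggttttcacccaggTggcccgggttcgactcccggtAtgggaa
TRE-TTC3-1: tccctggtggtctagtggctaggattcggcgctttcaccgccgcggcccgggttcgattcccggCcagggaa
TRE-TTC1-1, at chr2:130337128-130337199 on the minus strand, differed from tRNA-Glu-TTC-2-1 by C6T, C44T and G66A. A read over A37 that reaches none of these bases has the same letters in both tRNAs. A read of 15 nt or more over A5 also covers base 6. TRE-TTC3-1, at chr1:16872583-16872654 on the plus strand, differed from tRNA-Glu-TTC-4-1 by T65C alone. Of the 15 genes, 11 lay within 3 bases of tRNA-Glu-TTC-4-1, its own copies counted, so a short read over A57 can have the same letters in several of them. The study's methods merged isoforms of identical score before alignment. How a read that fits several remaining sequences was assigned is not given in the sources used here. The A57 values may therefore hold reads of several of these genes, and the A37 values reads of the TTC1 genes.

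In Input, A37 of tRNA-Glu-TTC-2-1 had the highest mismatch rate of the 3 adenosines and A57 of tRNA-Glu-TTC-4-1 the lowest. At A37 the mismatched reads were 154 of 894 and 328 of 1736 in CTRL, rates of 17.2% and 18.9%, and 230 of 1651 and 200 of 1377 in OE-WT, rates of 13.9% and 14.5%. Both CTRL libraries lay above both OE-WT libraries. CTRL averaged 18.1% ± 1.18 and OE-WT 14.2% ± 0.420 (SD, n = 2 each). On summed reads the difference, OE-WT minus CTRL, was -4.13 points (95% interval -6.07 to -2.20). That interval, like all others here on reads, covers counting error only.

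At A5 of the same tRNA, 8 of 111 and 36 of 242 reads were mismatched in CTRL (7.21% and 14.9%), against 36 of 340 and 20 of 211 in OE-WT (10.6% and 9.48%). The CTRL libraries enclosed the OE-WT libraries, and the means of 11.04% ± 5.42 and 10.03% ± 0.785 (SD, n = 2 each) lay within that spread. The summed difference of -2.30 points had an interval of -6.77 to 1.84, and without CTRL replicate 2 it turned to 2.96 points.

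At A57 of tRNA-Glu-TTC-4-1, the base that TRMT6/TRMT61A methylates, 13 of 342 and 26 of 508 reads were mismatched in CTRL and 36 of 517 and 32 of 512 in OE-WT. The rates were 3.80%, 5.12%, 6.96% and 6.25% in that order, and both OE-WT libraries lay above both CTRL libraries. The summed difference was 2.02 points, with an interval of -0.0984 to 4.10 that included 0. By library order A37 and A57 lay on opposite sides between the conditions.

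These separations stand beside those of the other sites. A minimum of 20 reads in every Input library left 23 sites, of which 5 (21.7%) were separated upward in OE-WT and 3 (13%) downward. The quasi-binomial model of mismatched and other reads called 0 of the 23 sites after Benjamini-Hochberg adjustment (0%), and 0 had an unadjusted p under 0.05. When all sites shared 1 dispersion, 1 of 23 was called (4.35%), and when summed reads were compared by Fisher's exact test, also 1 of 23 (4.35%). Both calls were A37 of tRNA-Glu-TTC-2-1. This is the contrast by which the tRNA was singled out, so nothing is read from it. Ordered from the lowest difference in mean rate, A37 was the 1st of 23, A5 the 5th and A57 the 20th.

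**Figure D1:**
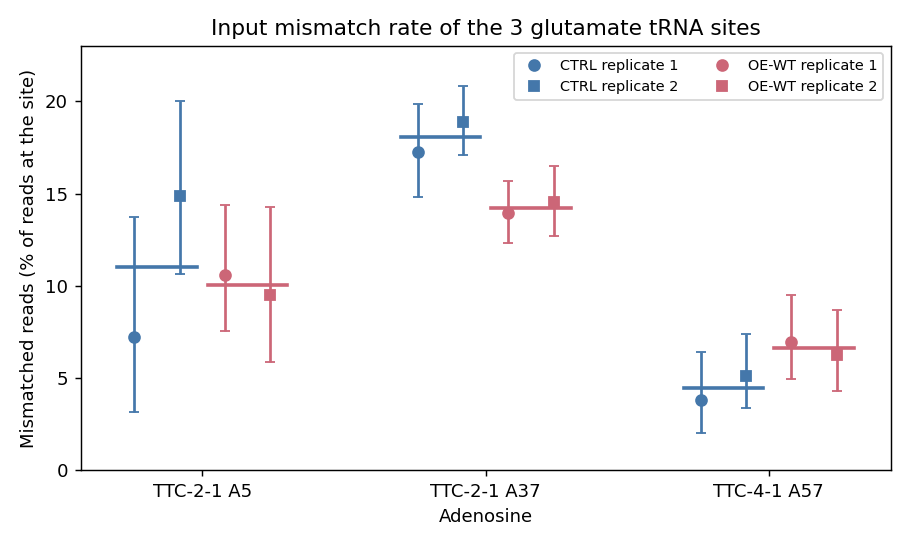
Share of mismatched Input reads at each adenosine, in percent, with 1 point per library, exact 95% binomial intervals as bars and the mean of each condition as a line. A37 was at 17.2% and 18.9% in CTRL and at 13.9% and 14.5% in OE-WT, while A57 was at 3.80% and 5.12% in CTRL and at 6.96% and 6.25% in OE-WT.

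Among themselves the 3 adenosines kept 1 order in all 4 Input libraries. A37 exceeded A5 of the same tRNA by 5.61 ± 3.02 points (SD over 4 libraries, 3.34 to 10.02). It exceeded A57 of tRNA-Glu-TTC-4-1 by 10.6 ± 3.50 points, and A5 exceeded A57 by 5.0 ± 3.17 points. Each of these 3 differences held in 4 of 4 libraries. They are a description, since the tRNAs were singled out with these rates known. By mean Input rate A37 was the 3rd of the 23 sites, A5 the 7th and A57 the 12th.

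A37 was listed in 2 further tRNAs, both of them tRNA-Asp-GTC (2-5 and 3-1). The mean Input rates of the 3 A37 sites ran from 6.43% to 16.1%, with that of tRNA-Glu-TTC-2-1 the highest. All 3 were lower in OE-WT by mean rate, but tRNA-Glu-TTC-2-1 alone had separated libraries. Of 7 listed sites that end a T-loop TTCGA or TTCAA, 4 could be tested, with mean rates from 2.63% to 23.1%. Among them 3 were higher and 1 lower in OE-WT, beside 11 higher and 12 lower over all 23 sites. The 13 sites of tRNA-Asp and tRNA-Glu split into 6 higher and 7 lower.

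The sites whose Input rates lay nearest to those of the members were picked by distance over the 4 Input libraries on the logit scale. For A37 they were A14 of tRNA-Asp-GTC-2-5 (13.8% to 17.3%), A37 of tRNA-Asp-GTC-3-1 (12.7% to 13.9%) and A57 of the initiator tRNA-iMet-CAT-1-1 (10.3% to 16.3%). The same 3 sites, in another order, were nearest to A5. A57 of tRNA-Glu-TTC-4-1 was nearest to A37 of tRNA-Asp-GTC-2-5 (5.98% to 6.85%), A24 of tRNA-Asp-GTC-1-1 (4.55% to 8.16%) and A14 of tRNA-Gly-CCC-2-2 (3.13% to 15%).

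The number of Input reads at the members differed little between the conditions. Per 1000 reads over the listed sites, A37 had 26.9 and 25.6 in CTRL, against 22.8 and 22.7 in OE-WT. A57 of tRNA-Glu-TTC-4-1 had 10.3 and 7.50 in CTRL, against 7.13 and 8.43 in OE-WT. A5 had 3.33 and 3.57 in CTRL, against 4.69 and 3.47 in OE-WT. A37 had separated libraries, lower in OE-WT, as did 10 of 40 sites (25%), beside 1 site (2.5%) that was separated upward, while A57 and A5 overlapped. In edgeR's quasi-likelihood test 0 of 40 sites were called (0%), with 3 at an unadjusted p under 0.05, and DESeq2 also called 0, with 1 unadjusted. The fitted log2 fold changes of OE-WT over CTRL were 0.42 ± 0.28 at A5 (SE, edgeR adjusted p = 0.648), 0.02 ± 0.23 at A57 (0.985) and -0.02 ± 0.22 at A37 (0.985). Those of A57 and A37 changed sign under other settings.

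Of the Input reads listed for tRNA-Glu-TTC-2-1, most were at A37 in the anticodon loop and few at A5 in the acceptor stem. Those at A37 may include reads of the TTC1 genes, while reads over A5 also cover base 6, which differs. Reads at A5 per read at A37 were 0.124 and 0.139 in CTRL, against 0.206 and 0.153 in OE-WT. Both OE-WT libraries lay above both CTRL libraries, with means of 0.180 ± 0.0373 and 0.132 ± 0.0108 (SD, n = 2 each). The difference of 0.0478 had a two-sided exact permutation p of 0.33, the smallest that 2 against 2 libraries allow. It was 0.0215 without OE-WT replicate 1 and 0.0742 without OE-WT replicate 2.

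The antibody fraction turned the balance of these adenosines round. Summed over its libraries, reads of tRNA-Glu-TTC-2-1 were nearly all at A5, most of them from CTRL replicate 2. A37 and A57 were almost without reads. At A5 the IP libraries of CTRL held 4 and 41 reads and those of OE-WT 1 each, or 33.6, 186, 16.9 and 6.67 per 1000. At A37 replicate 1 of each condition held 1 read and replicate 2 none. At A57 of tRNA-Glu-TTC-4-1 it was replicate 2 of each condition that held 1 read, and replicate 1 none. All 4 IP libraries lay above all 4 Input libraries at A5 by reads per 1000, as at 8 of 42 sites (19%). At A37 all 4 lay below, as at 11 of 42 (26.2%). A57 was also lower in every IP library than in any Input library.

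In edgeR, with library sizes summed over the listed sites, 35 of 42 sites were called between IP and Input (83.3%), 25 higher in IP (59.5%) and 10 lower (23.8%). A5 had a log2 fold change of 4.16 ± 0.68 (SE, adjusted p = 9.48e-05), close to the median of all sites, 3.91, and 20th of 42 from the top. With TMM scaling the median moved to -1.91, the calls were 5 higher and 23 lower, and A5 stood at -1.86 and was called lower in IP (adjusted p = 0.0192), so its direction turned with the scaling. A37 fell by 2.74 ± 0.75 (adjusted p = 0.0044), the 40th of 42, and was also called lower with TMM. A57 had -1.22 ± 0.98 (adjusted p = 0.261) and was 32nd. With TMM it was called lower (adjusted p = 1.73e-10). A site needed 10 reads over both fractions, and A37 and A57, with 2 IP reads each, met this only through Input. Their calls, ranks and separations between IP and Input therefore add no support to the values per library. Set against the median of all sites, A37 lay at -6.65 and A57 at -5.13, and with TMM at -6.50 and -4.98. A change of scaling moves all sites nearly alike, so these distances had to stay close and add no support.

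On summed reads A5 took 47 of 548 IP reads and 904 of 234265 Input reads, a ratio of 22.2 (95% counting interval 16.2 to 29.8). CTRL replicate 2 held 41 of the 47 reads, where A5 was the site with the most reads of all. Without that culture the ratio was 4.6 (1.68 to 10.07). A37 took 2 IP reads against 5658 Input reads, a ratio of 0.151 (0.0183 to 0.546). A57 took 2 against 1879, a ratio of 0.455 (0.0551 to 1.65).

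**Figure D2:**
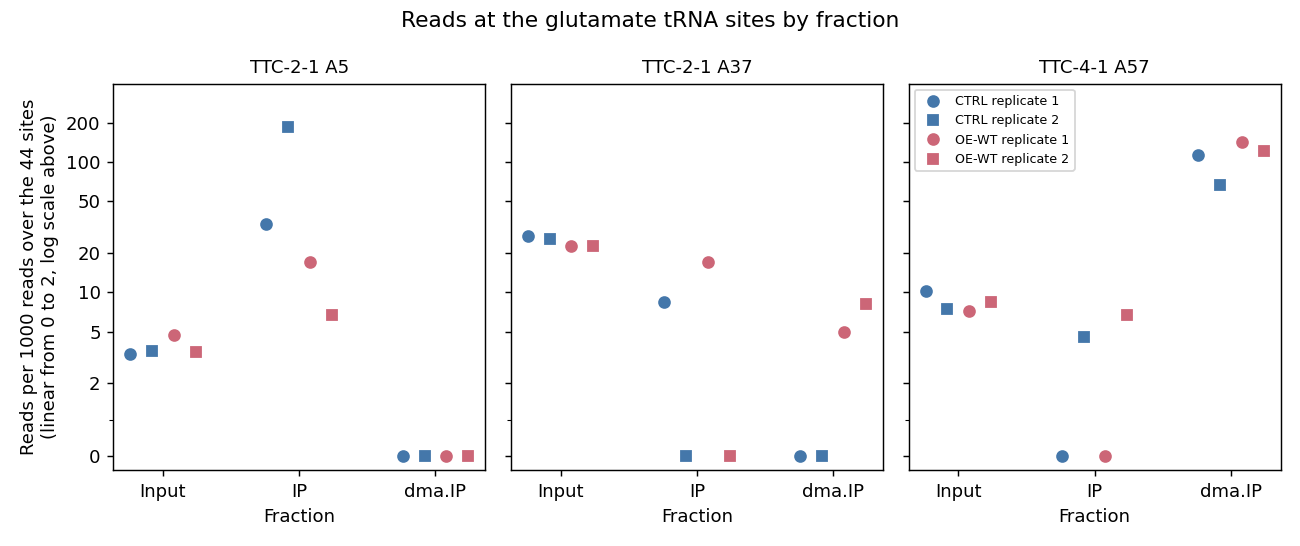
Reads per 1000 reads over the 44 sites at each adenosine, by fraction, with 1 point per library on an axis that is linear from 0 to 2 and logarithmic above. A5 ran from 6.67 to 186 in IP and was at 0 in all dma.IP libraries, while A57 ran from 66.2 to 143 in dma.IP and from 0 to 6.67 in IP.

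The contrast between the adenosines of tRNA-Glu-TTC-2-1 was clearest within the tRNA, where the other sites do not enter. The A37 reads listed for this tRNA may include reads of the TTC1 genes. The share of its A5 and A37 reads that lay at A5 was 11.0% and 12.2% in the Input libraries of CTRL and 17.1% and 13.3% in those of OE-WT. In IP it was 80% (4 of 5) and 100% (41 of 41) in CTRL and 50% (1 of 2) and 100% (1 of 1) in OE-WT. Summed, A5 had 47 of 49 such reads in IP, 95.9% (exact 95% interval 86.0 to 99.5%), and 904 of 6562 in Input, 13.8%. Of the 49 IP reads, 41 came from CTRL replicate 2. The mean difference over cultures was 69.1 ± 25.6 points (SD, n = 4), higher in IP in 4 of 4 cultures, and every IP library lay above every Input library. The two-sided exact paired permutation p was 0.13, the smallest that 4 cultures allow. This test was chosen after the values were seen. Without CTRL replicate 2 the mean difference was 62.9 points.

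**Figure D3:**
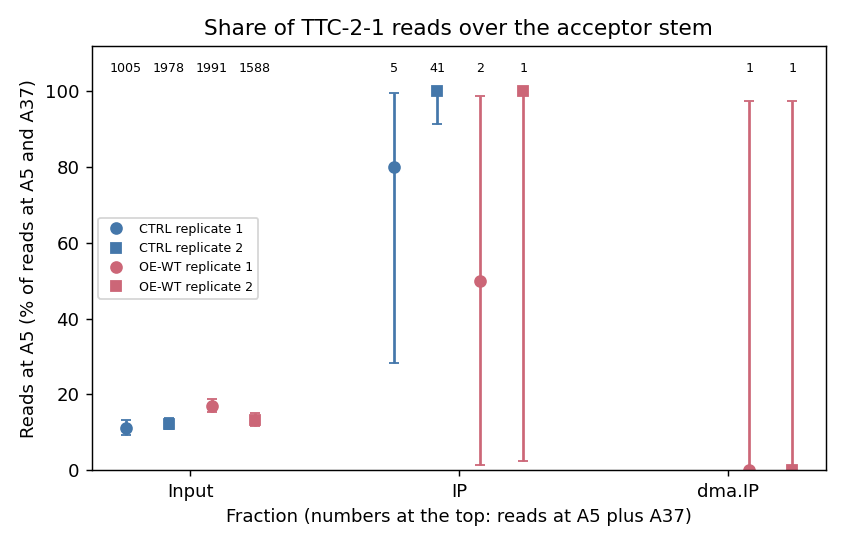
Reads at A5 as a percent of the reads at A5 and A37 of tRNA-Glu-TTC-2-1 in each library, with exact 95% binomial intervals and the number of reads at the top. Input libraries lay between 11.0% and 17.1%, and IP libraries between 50% and 100% on 1 to 41 reads.

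Between the conditions the recovery of A5 in IP was unequal. The fit used here was added after the values were seen, so its p-value adds no support to them. By the interaction of fraction and condition in edgeR, the log2 change from Input to IP was lower in OE-WT than in CTRL by 3.84 on the log2 scale, an estimate of -3.84 ± 1.02 (SE, adjusted p = 0.00932), the only call among 42 sites (2.38%). Without CTRL replicate 2 the estimate was -2.09 (adjusted p = 0.772) and 0 sites were called, so the call rests on 1 library. The IP values of A5 per 1000, 33.6 and 186 in CTRL against 16.9 and 6.67 in OE-WT, did not overlap, as at 6 of 23 sites lower in OE-WT (26.1%), beside 2 that were higher (8.7%). These sites needed a sum of 10 IP reads. A5 met this only through CTRL, with 45 reads against 2 in OE-WT, so its separation adds no support.

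The demethylase-treated fraction separated the members again. A57 of tRNA-Glu-TTC-4-1, nearly without reads in IP, became one of the best covered sites. Its dma.IP libraries held 7 and 9 reads in CTRL and 29 and 15 in OE-WT, or 113 and 66.2 against 143 and 122 per 1000. It was the site with the most reads in both OE-WT libraries, the 2nd in CTRL replicate 1 and tied for the 7th place in CTRL replicate 2. Every dma.IP library lay above every IP library, which was true of this site alone among 29 (3.45%). Every one also lay above every Input library, as at 3 of 42 sites (7.14%). A5 of tRNA-Glu-TTC-2-1 had no read in any of the 4 dma.IP libraries, below all IP libraries, as were 3 of 29 sites (10.3%). Like the calls below, these separations from IP add no support, because of the minimum of reads. A37 had 1 read in each OE-WT library and none in CTRL.

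A site needed 10 reads over both fractions to be tested. A57 and A5 met this only through the fraction in which they were high. Their calls, ranks and separations between dma.IP and IP therefore add no support to the values per library. edgeR called 2 of 29 sites between dma.IP and IP (6.9%), A57 higher (3.45%) and A5 lower (3.45%). A57 of tRNA-Glu-TTC-4-1 rose by 4.56 ± 0.71 on the log2 scale (SE, adjusted p = 1.18e-06), the 1st of 29, against a median of -0.58. The next site, A56 of tRNA-Gly-GCC-2-1, had 3.18 with an adjusted p of 0.0973. In the fits that left out 1 culture each, A57 stayed between 4.22 and 5.01. On summed reads A57 took 60 of 524 dma.IP reads and 2 of 548 IP reads, a ratio of 31.4 (95% counting interval 8.32 to 265). Against Input the dma.IP ratio was 14.3 (10.9 to 18.5).

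A5 of tRNA-Glu-TTC-2-1 was the lowest of the 29 sites, with an adjusted p of 0.00228 in edgeR. Its fitted value was set by a group with no reads and is not a bound. Against a floor of 3 reads over the 4 dma.IP libraries, A5 was 14.98-fold higher in IP, and 2.37-fold without CTRL replicate 2. These folds take the IP reads as exact and leave out the spread between libraries, so they are not lower bounds. Against Input no fold can be given, since that floor exceeds the Input share of A5. The call was lost in DESeq2 (adjusted p = 0.0594) and without OE-WT replicate 1 (edgeR adjusted p = 0.105), and without CTRL replicate 2 too few reads were left for a test. A37, with 4 reads over both fractions, fell under the minimum of 10 and was not tested.

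**Figure D4:**
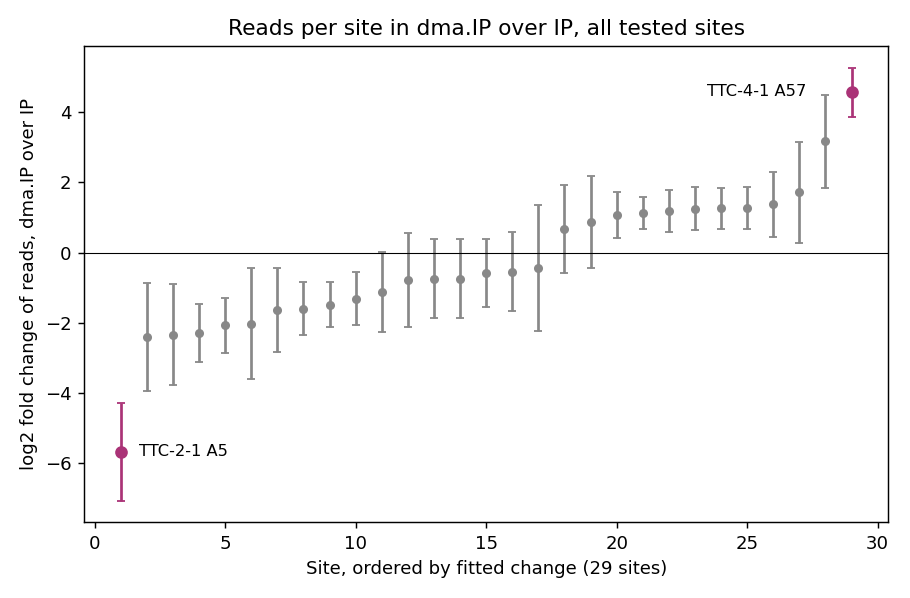
Fitted log2 fold change of reads in dma.IP over IP for each of 29 sites, in ascending order, with the standard error as bars and the glutamate tRNA sites in colour. A57 of tRNA-Glu-TTC-4-1 was the highest at 4.56 and A5 of tRNA-Glu-TTC-2-1 the lowest at -5.68, a fitted value set by a group with no reads.

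Between the conditions, CTRL averaged 89.5 ± 33.04 reads per 1000 at A57 in dma.IP, and OE-WT 132 ± 14.8 (SD, n = 2 each). The libraries did not overlap, as at 3 of 18 sites higher in OE-WT (16.7%), beside 7 that were lower (38.9%). This difference was not tested.

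Mismatch rates in the antibody fractions rested on few reads, and every listed site had a mismatched IP read, so they are given as counts. In IP, 1 of 47 reads was mismatched at A5, 2.13% (exact 95% interval 0.0539 to 11.3%), against 11.1% in Input (100 of 904, 9.09 to 13.3%). These intervals overlapped. That read was in CTRL replicate 2, and the other 3 IP libraries had 0 of 6 reads. At A37 the mismatched IP reads were 1 of 1 in CTRL replicate 1 and 0 of 1 in OE-WT replicate 1. At A57 the single IP reads of CTRL replicate 2 and OE-WT replicate 2 were both mismatched.

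In dma.IP the A57 mismatches were 1 of 7 and 0 of 9 reads in CTRL and 3 of 29 and 0 of 15 in OE-WT. Summed they came to 4 of 60, 6.67% (exact 95% interval 1.85 to 16.2%), beside 107 of 1879 in Input, 5.69% (4.69 to 6.84%). At this depth no difference between the fractions was detectable. A37 had 0 mismatches in its 2 dma.IP reads, a number that sets no limit below 100%, and A5 had no read to count.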

How the data were processed

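tRNA m1A sequencing libraries of DLD1 cells (2 cultures of CTRL and 2 of OE-WT, each as Input, IP and dma.IP) were grouped by their labels. The authors trimmed reads with Cutadapt 1.9.3, kept reads of 15 nt or more, aligned them with Bowtie2 to tRNA sequences carrying CCA, in which isoforms of identical score had been merged, and counted them with SAMtools. The version of the other tools, the calling of mismatches, the choice of sites and the demethylase step are not given in the sources used here. Per library, the authors deposited at every site a count of reads and a count of mismatched reads, which are not normalized. The deposited rates were not used, being ratios of these counts, nor were the authors' columns of differences and fold changes of the rates between IP and dma.IP. The deposited counts are reads without molecular identifiers.

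Sequences were checked against hg38, where all 44 listed sequences matched, using gene annotation of RefSeq and GENCODE. Reads per site were tested with edgeR 4.0.16 (quasi-likelihood; a sum of at least 10 reads; TMM in Input, and library sizes summed over the listed sites elsewhere, with condition as covariate). Input mismatches were tested with a quasi-binomial model (20 or more reads in every library). Alternatives included limma 3.58.1 (each site's dispersion drawn toward a common value) and Fisher's exact test. DESeq2 1.42.0 was an alternative for reads per site. Adjusted p-values are Benjamini-Hochberg over all tested sites, at a threshold of 0.05. Shares have Clopper-Pearson 95% intervals, differences Newcombe intervals. Single values were compared with two-sided exact permutation tests computed directly in Python. SciPy 1.17.1 gave the exact binomial intervals. Simulated data served only as a check of the code and add no support to any result here. R 4.3.3, Python 3.11.15 and matplotlib 3.10.9 were used.

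All listed sites of the tRNAs were named, with the 3 sites nearest to each by Input rates on the logit scale (offset 0.01) and the A37, T-loop and Asp and Glu lists. The T-loop list, by its letters, left out A57 of tRNA-iMet. The members and lists were chosen with earlier results of these data known. Replicates of a group were not copies of each other (chi-square over Input sites 432 in CTRL, 42 degrees of freedom, and 940 in OE-WT, 43 degrees of freedom). Input, IP and dma.IP libraries were paired as 1 culture only by the condition and replicate number in their titles. Their deviations from the group means correlated with r = 0.194 (CTRL) and -0.0222 (OE-WT) between Input and IP over 21 sites, and with 0.520 and 0.301 between IP and dma.IP over 13 sites. CTRL and OE-WT cultures of the same number shared only that number.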

Additional observations from a re-analysis of the deposited data

Results flagged for a closer look

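The change from Input to IP at A5 of tRNA-Glu-TTC-2-1 differed between the conditions by a test of the difference itself, with an edgeR interaction of -3.84 on the log2 scale (adjusted p = 0.00932, OE-WT minus CTRL). A single library, CTRL replicate 2, held 41 of the 47 IP reads, and without that culture the value was -2.09 with an adjusted p of 0.772. The interaction was fitted after the values were seen. The cause was not tested.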

How the results depend on the processing

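Over 20 results and 153 alternatives, 131 kept direction and side of the threshold. For Input reads of OE-WT over CTRL, A37 had a log2 value of 0.011 with DESeq2 and 0.089 with 1 row per tRNA, and -0.091 to 0.051 with 1 library left out. A57 had -0.054 without a filter, -0.19 without TMM and -0.12 to 0.13 with 1 library left out. None of these was called. Leaving out TMM moved the median of all sites from 0.03 to -0.20, and for dma.IP over IP TMM moved it from -0.58 to -0.72. For IP over Input, A5 was -1.86 with TMM, called in the opposite direction (adjusted p = 0.0192), and 18 of 27 sites were called with 1 row per tRNA. For dma.IP over IP, 1 site was called with DESeq2 and 1 to 2 with a culture left out. The interaction called 0 to 1. For Input mismatches, 1 site was called with dispersions drawn toward a common value and 1 with Fisher's exact test. A5 ran from -4.71 to 2.96 points with a library left out. Leaving out the culture with most IP reads at A5 also removes most of its reads. The cause of the other changes was not tested.

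With the replicate number as a block, 0 Input sites were called by reads and 0 by mismatches, A37 standing at -0.0082 on the log2 scale. Same-numbered CTRL and OE-WT Input libraries deviated together with r = 0.0471 over 40 sites. With the culture as a block, 32 sites were called between IP and Input and 3 between dma.IP and IP, where A57 had 4.53. No member's call changed under the block. The IP and dma.IP fractions, with 548 and 524 reads over the sites, limit every value in them, and with so few libraries the exact permutation tests could not pass 0.05.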
